A study of Mus musculus with 12 samples.

Results

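The genes of the proteasome were described in mouse kidney RNA, across 12 sequencing libraries in 4 groups of 3. Genes were chosen by symbol alone: those that start with Psma, Psmb, Psmc, Psmd, Psme, Psmf or Psmg and a digit, without Psmb8, Psmb9 and Psmb10 and without pseudogenes. This gave 47 of the 21004 genes in the deposited table. By role, 16 belong to the catalytic core, 17 to the regulatory cap, 6 are activators or an inhibitor and 7 are assembly chaperones. The remaining gene, Psmc3ip, matches by its symbol only, since it is known for its part in meiotic recombination and is not a subunit. All libraries came from kidneys of ICR mice at 8 weeks of age. The groups were control, busulfan (an alkylating drug used before bone marrow transplantation), busulfan plus L.J. at 10 mg/kg, and L.J. alone at 10 mg/kg. The study asked whether L.J. offsets what busulfan does to the kidney. Its labels do not expand L.J., or the FMT of its design text, and give no sex, busulfan dose, route or time after dosing. Nor do they tie a replicate to an animal of its own. The p-values thus rest on the spread among libraries, which may be technical.

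The proteasome degrades proteins that carry ubiquitin chains. Its core is a barrel of alpha and beta rings with the proteolytic sites inside, on the beta subunits encoded by Psmb5, Psmb6 and Psmb7. The cap binds ubiquitin, removes it and unfolds the substrate. It is built from a base with a ring of ATPases (Psmc genes) and a lid (Psmd genes), while Psmg and some Psmd genes encode chaperones that assemble the parts and leave. In place of the cap, the core can bind activators that need no ATP or ubiquitin: PA28 alpha and beta (Psme1, Psme2), induced by interferon, the nuclear PA28 gamma (Psme3), and PA200 (Psme4), known for degrading acetylated histones and for roles in DNA repair and spermatogenesis. In the kidney, most cells are tubule epithelium with high rates of protein uptake and turnover.

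Values were FPKM (fragments mapped to a gene, scaled to transcript length and to the mapped total of the library), so levels can be set side by side between genes, but absolute depth is unknown. Genes with at least 1 FPKM in at least 3 libraries were tested, which kept 12281 genes and 45 of the 47 proteasome genes. All 5 proximal tubule markers were found, with a summed level of 2857 to 4756 FPKM over the 12 libraries. Within groups, Spearman's correlation across genes was between 0.976 and 0.989, except for pairs with the third busulfan library, where it was 0.954 and 0.950. In that library the level relative to the other libraries correlated with transcript length at -0.52 (others -0.07 to 0.32) and with GC content at 0.38 (others -0.30 to 0.14). The androgen-dependent tubule gene Kap took 2.13% and 1.03% of all FPKM in the first and second busulfan libraries, against 6.61% to 9.73% in the other 10. Results that involve busulfan are therefore given with and without the third busulfan library. In whole-tissue RNA, fewer cells of a type and less RNA per cell cannot be told apart.

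In control kidney, core genes were on the whole at a higher level than cap genes. The 14 tested core genes ran from 32.1 FPKM for Psma5 to 190.5 FPKM for Psma4, both alpha ring subunits, with a median of 98.2. The 17 cap genes lay in a narrower range, from 39.9 FPKM for the lid gene Psmd13 to 84.6 FPKM for the ATPase gene Psmc1, with a median of 63.1. The ratio of highest to lowest was 5.94 in the core and 2.12 in the cap. Chaperones were lower, at 5.79 to 20.8 FPKM for those of the core and 8.58 to 20.4 FPKM for those of the cap. Among the activators, Psme3 was highest at 64.7 ± 2.73 FPKM (SD, n = 3), followed by Psme1 (47.0 ± 6.87), Psme4 (38.9 ± 1.08) and Psme2 (30.5 ± 2.52). The control libraries of each of these 4 genes do not overlap with those of the next in this order. The inhibitor gene Psmf1 was at 10.5 ± 0.28 FPKM.

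**Figure D1:**
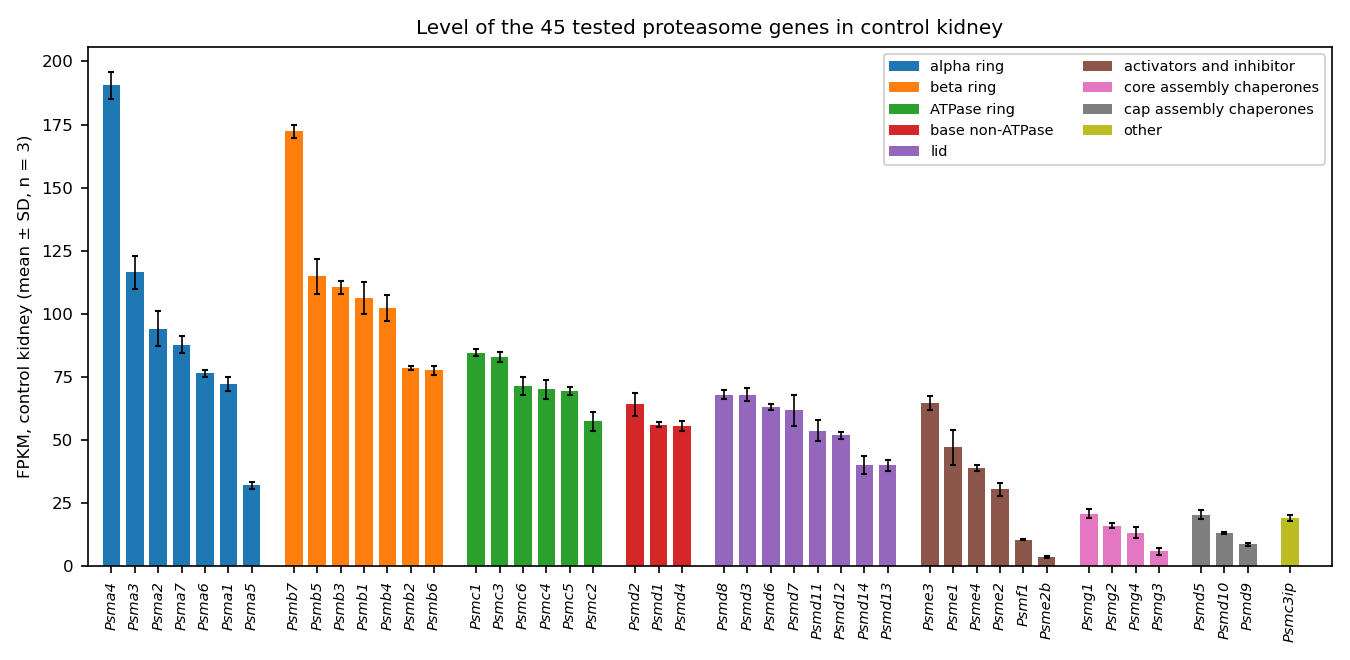
Mean FPKM (vertical axis) of the 45 tested proteasome genes in the 3 control libraries, with bars for the mean and whiskers for the SD, coloured by class. Psma4 (190.5) and Psmb7 (172) stand above the other core genes, while cap genes lie between 39.9 and 84.6.

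Both genes that failed the filter encode subunits of other organs. Psma8, the alpha subunit of testis germ cells, was between 0.04 and 0.35 FPKM, and Psmb11, the beta subunit of thymic epithelium, was between 0.24 and 0.77 FPKM in the 12 libraries. The 3 immunoproteasome genes left out by the rule stood well below their constitutive partners: Psmb8, Psmb9 and Psmb10 together came to 3.42% to 4.11% of the summed level of Psmb5, Psmb6 and Psmb7 in the control libraries. That share was 4.63%, 5.32% and 5.64% with busulfan, 3.07% to 5.35% with busulfan plus L.J. and 3.72%, 3.75% and 4.95% with L.J. alone. The busulfan libraries were above all controls but overlapped both groups with L.J. The summed level of the 3 genes was 12.2 to 14.9 FPKM in control and 12.9, 15.8 and 23.5 FPKM with busulfan, so in the first busulfan library it lay within the controls, where Psmb5 and Psmb7 were low.

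With busulfan, the PA200 gene Psme4 fell and the PA28 beta gene Psme2 rose. The summed level of the cap genes was lower in relation to that of the core genes in all 3 busulfan libraries, a ratio that is given without a test. Of the 45 tested genes, 2 passed the test (limma, adjusted over all tested genes), 1 higher and 1 lower, or 4.44%, against a background of 1.44% of all tested genes (0.725% higher and 0.717% lower). The median log2 change over the 45 genes was -0.05, while that over all tested genes was 0.08. By class, 16 of 17 cap genes had a value below 0 (median -0.21), as had 9 of 14 core genes (median -0.02), 3 of 6 activators and inhibitor, and none of the 7 chaperones. Of all tested genes, 36.7% were below 0. Neither called gene is called when any library of the control group, or the first or second busulfan library, is left out, with adjusted p between 0.0502 and 0.165 for Psme4 and between 0.0922 and 0.181 for Psme2. With median ratio scaling Psme4 alone was called (2.22% of the 45, beside 3.09% of all tested genes). The split over all tested genes was then 121 higher and 259 lower in place of 89 and 88. Without the third busulfan library 20 were called (44.4%, beside 32.5% of all tested genes).

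**Figure D2:**
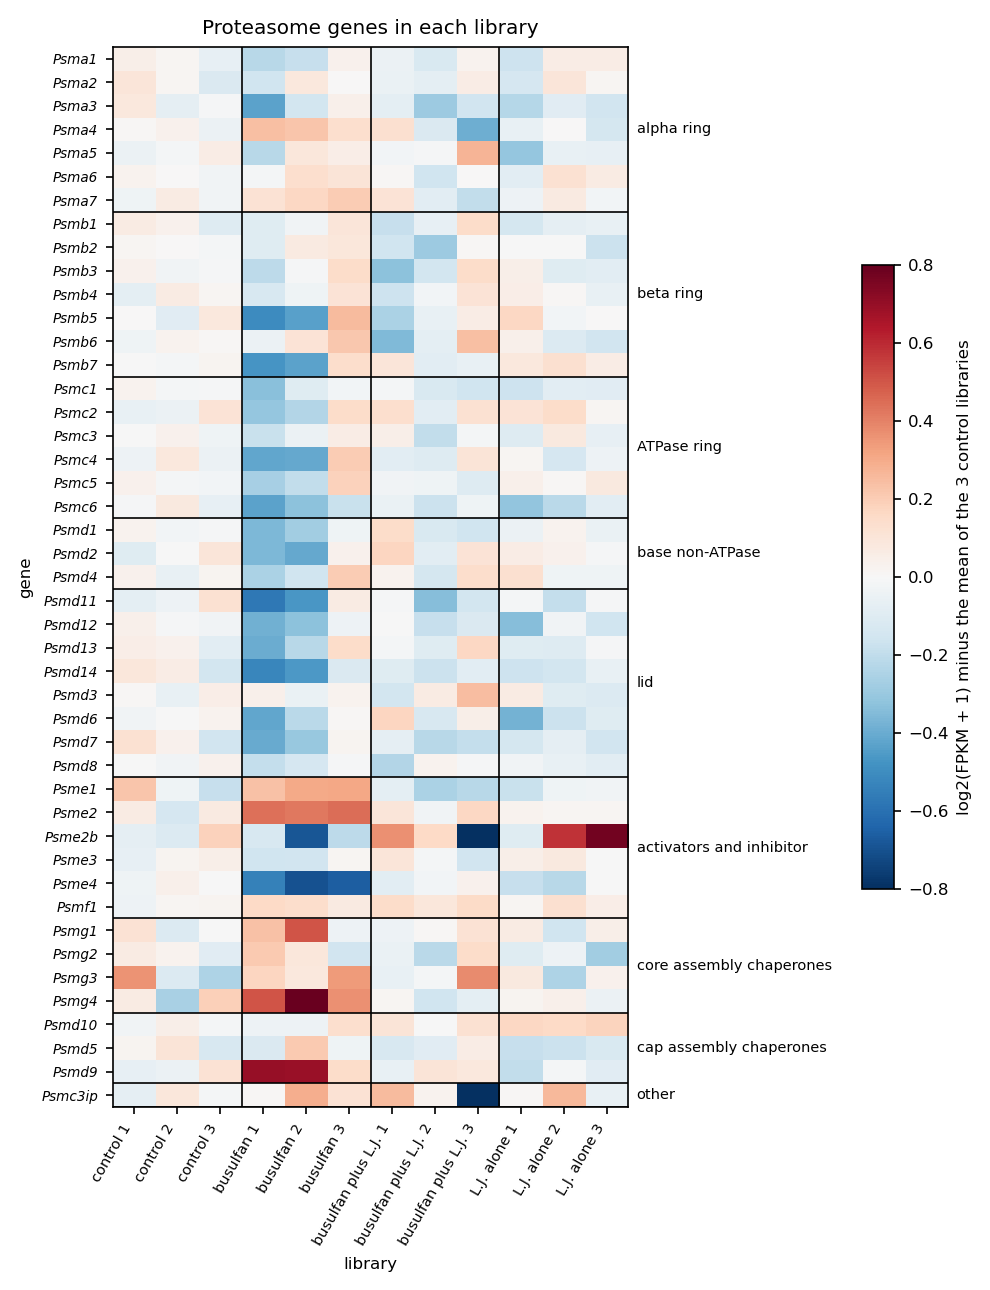
Each row is a tested proteasome gene, each column a library, and colour shows log2(FPKM + 1) minus the mean of the 3 control libraries, limited to the range from -0.8 to 0.8. Most cap genes are blue in the first and second busulfan libraries and pale in the third, while Psme4 is blue and Psme2 red in all 3. Psmd3 is pale in all 3, and Psmc3 (-0.05) and Psmc1 (-0.10) are pale in the second.

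Psme4 (Entrez 103554, chromosome 11, 30771775 to 30881150, mm10 coordinates) had the smallest p of the 45 genes. For Psme4, FPKM values were 37.9, 40.1 and 38.8 in control, 26.4, 23.6 and 24.2 with busulfan, 36.7, 38.4 and 39.9 with busulfan plus L.J. and 34.2, 33.2 and 38.9 with L.J. alone. All 3 busulfan libraries lay below the other 9. Its log2 change with busulfan was -0.63 (SE 0.08, limma adjusted p = 0.0189), on the log2(FPKM + 1) scale used throughout. The busulfan libraries lay 0.54, 0.70 and 0.66 below the control mean on that scale in the order of their numbers. Psme4 is the longest of the tested proteasome genes, with a transcript of 6491 bases against a median of 1440. After a correction of each library for length and GC content its log2 change was -0.50 with an adjusted p of 0.0875. Without the third busulfan library it was -0.62 with an adjusted p of 0.000702.

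Psme2 (Entrez 19188, chromosome 14, 55587440 to 55591101) and Psme1 (Entrez 19186, chromosome 14, 55578494 to 55581527) are close neighbours and encode the subunits of one ring. Control libraries had 31.9, 27.6 and 32.0 FPKM of Psme2, busulfan libraries 41.6, 41.1 and 41.9, busulfan plus L.J. libraries 32.6, 29.9 and 34.2 and L.J. alone libraries 31.1, 30.7 and 30.8. The 3 busulfan libraries were the highest of the 12 and close to each other. Its log2 change with busulfan was 0.44 (SE 0.08, limma adjusted p = 0.0364). Psme1 was at 54.5, 45.5 and 41.0 FPKM in the control libraries, at 55.2, 57.9 and 58.0 with busulfan, at 44.3, 39.1 and 39.8 with busulfan plus L.J. and at 41.2, 45.5 and 45.7 with L.J. alone. The busulfan libraries were again the 3 highest, but the first control library came close to them. The log2 change of Psme1 with busulfan was 0.28 (SE 0.10, limma adjusted p = 0.14), which did not pass. With the correction for length and GC content the change of Psme2 was 0.32 with an adjusted p of 0.133.

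The copy Psme2b shares 59.3% of the 50-base words of the Psme2 transcript, so reads could be split between them. For Psme2b, FPKM values were 3.36, 3.24 and 4.20 in control, 3.20, 1.85 and 2.96 with busulfan, 4.91, 4.11 and 1.38 with busulfan plus L.J. and 3.28, 5.85 and 6.81 with L.J. alone. It stood at a small part of the level of Psme2 everywhere, and its busulfan libraries lay below the controls, where those of Psme2 lay above. Psme3 and the inhibitor gene Psmf1 did not pass. Control libraries had 61.6, 65.6 and 66.9 FPKM of Psme3, busulfan libraries 57.8, 58.0 and 65.3, busulfan plus L.J. libraries 69.2, 64.1 and 58.0 and L.J. alone libraries 67.0, 68.3 and 64.5. Psmf1 was at 10.1, 10.6 and 10.7 FPKM in the control libraries, at 11.8, 11.6 and 11.1 with busulfan, at 11.7, 11.2 and 11.8 with busulfan plus L.J. and at 10.6, 11.5 and 10.9 with L.J. alone. Psme3 overlapped between all groups, while the busulfan libraries of Psmf1 were just above the controls. Their log2 changes with busulfan were -0.10 (adjusted p = 0.504) and 0.12 (adjusted p = 0.343, limma).

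**Figure D3:**
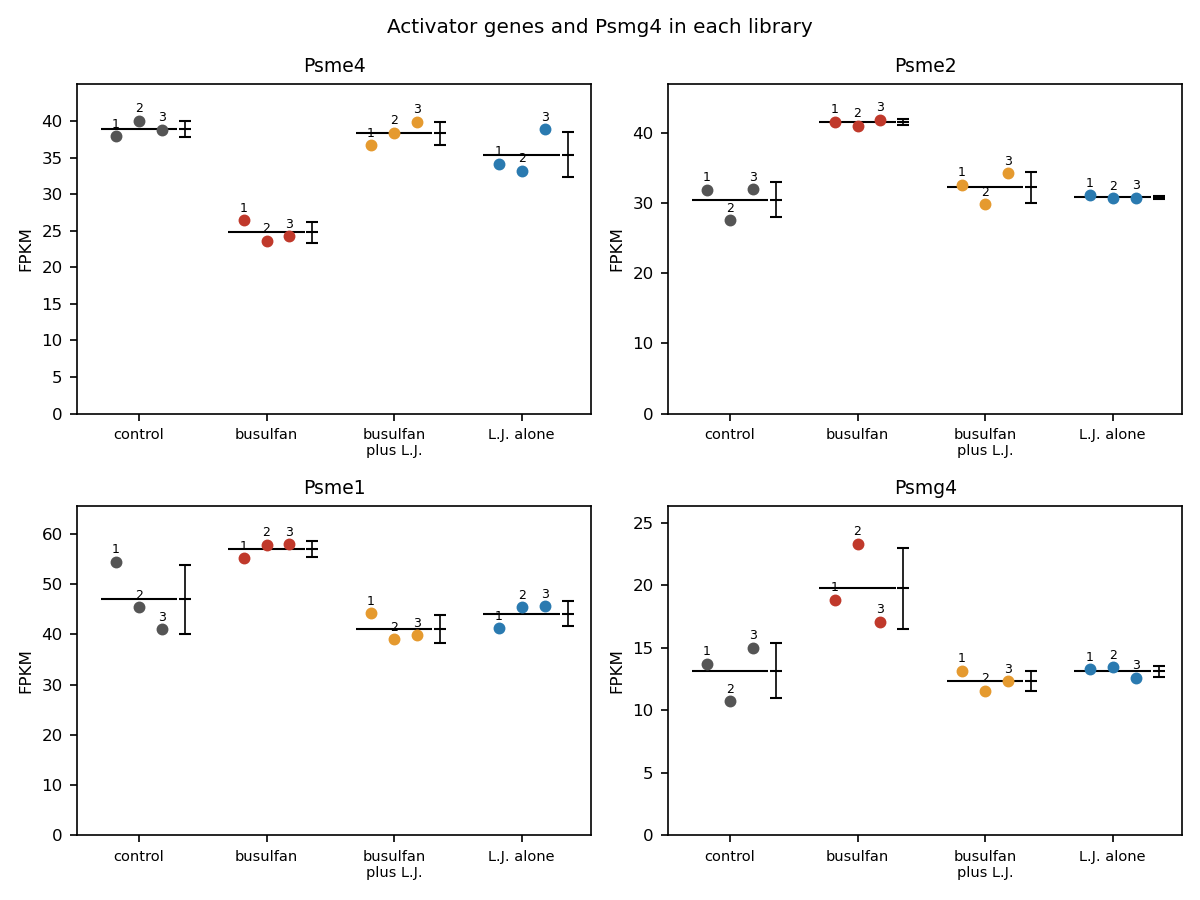
FPKM (vertical axes, from 0) of Psme4, Psme2, Psme1 and Psmg4 in each library (points, numbered by replicate), with the group mean as a line and the SD as a whisker at its right. The 3 busulfan libraries lie apart from the controls in each panel, at 23.6 to 26.4 FPKM for Psme4 and 41.1 to 41.9 FPKM for Psme2.

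The bases just upstream of these activator genes are shown because Psme2 and Psme4 were the called genes, and because Psme1 encodes the partner of Psme2. They are the 120 bases before a transcription start in RefSeq for GRCm38.p6, the build of mm10, in the direction of transcription. Psme2 has another start in that table, whose 120 bases lie at chr14:55591022-55591141, and the one farther upstream is shown.
Psme4 at chr11:30771655-30771774, plus strand: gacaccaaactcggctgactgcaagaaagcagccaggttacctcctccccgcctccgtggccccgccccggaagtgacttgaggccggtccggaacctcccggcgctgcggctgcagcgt
Psme1 at chr14:55578374-55578493, plus strand: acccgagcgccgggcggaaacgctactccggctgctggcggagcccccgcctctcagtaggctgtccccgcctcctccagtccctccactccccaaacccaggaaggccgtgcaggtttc
Psme2 at chr14:55591102-55591221, minus strand: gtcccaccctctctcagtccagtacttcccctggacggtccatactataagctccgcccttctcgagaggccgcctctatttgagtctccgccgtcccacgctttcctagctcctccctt
Proteasome genes as a group are known targets of the transcription factors Nfe2l1 and Nfe2l2, which bind the antioxidant response element with the core TGACNNNGC, and of NF-Y, which binds CCAAT. Both motifs were searched on both strands in the 250 bases before the start. The first was in 5 of the 38 tested proteasome genes with an entry, and in 13.9% of the tested genes with one. CCAAT was in 13 of the 38 and in 40.4% of the tested genes. Neither motif is in the windows of Psme4, Psme1 and Psme2, both starts of Psme2 included. The antioxidant motif is shown in capitals, with its flanks, for the 4 genes whose start lies in a GENCODE transcript. In Psmc6 and Psmd12 the motif is on the opposite strand to the one shown, so their capitals are its reverse complement.
Psmb5 at chr14:54618023-54618052, minus strand: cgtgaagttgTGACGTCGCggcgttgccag
Psmd9 at chr5:123228149-123228178, plus strand: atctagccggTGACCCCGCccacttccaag
Psmc6 at chr14:45329587-45329616, plus strand: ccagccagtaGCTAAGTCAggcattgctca
Psmd12 at chr11:107479278-107479300, plus strand: tctGCTGTGTCAcatttgccccc
These 4 genes did not share a direction with busulfan: the level of Psmd9 was above the control mean in all 3 busulfan libraries, that of Psmc6 and Psmd12 was below, and Psmb5 was below in the first and second and above in the third.

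No core gene passed the test with busulfan. The catalytic beta subunits of the core split by library. For Psmb5, FPKM values were 115, 108 and 122 in control, 80.5, 84.5 and 137 with busulfan, 96.1, 110.0 and 119 with busulfan plus L.J. and 129, 113 and 115 with L.J. alone. Control libraries had 172, 170.2 and 175 FPKM of Psmb7, busulfan libraries 124, 128 and 189.8, busulfan plus L.J. libraries 185, 162 and 165 and L.J. alone libraries 183, 189 and 179.6. For both genes the first and second busulfan libraries were the lowest of the 12 and the third was the highest. Psmb6 was at 75.7, 79.0 and 77.9 FPKM in the control libraries, at 74.9, 83.7 and 90.2 with busulfan, at 60.6, 73.4 and 91.6 with busulfan plus L.J. and at 79.7, 71.6 and 69.6 with L.J. alone. For Psmb6, which encodes the third catalytic subunit, busulfan overlapped every other group. The log2 changes were -0.23 (SE 0.17, limma adjusted p = 0.446) for Psmb5, -0.25 (SE 0.14, limma adjusted p = 0.293) for Psmb7, and 0.09 with an adjusted p of 0.707 for Psmb6.

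In the alpha ring, whose N-termini form the gate of the barrel, Psma4 and Psma7 were above all controls in the 3 busulfan libraries. For Psma4, FPKM values were 192, 195 and 185 in control, 225, 223 and 209.5 with busulfan, 208, 175 and 145 with busulfan plus L.J. and 183, 191 and 172 with L.J. alone. Control libraries had 85.5, 91.6 and 86.0 FPKM of Psma7, busulfan libraries 95.2, 98.4 and 101, busulfan plus L.J. libraries 94.6, 82.7 and 76.2 and L.J. alone libraries 85.2, 92.1 and 86.3. For both genes the ranges of busulfan and control do not overlap, but the log2 changes of 0.20 (SE 0.12, limma adjusted p = 0.319) and 0.16 (SE 0.09, limma adjusted p = 0.287) did not pass. For Psma7 the sign turned (-0.04) when libraries were scaled by median ratios and the third busulfan library was left out. For Psma3, another subunit of the ring, the first and second busulfan libraries were below the controls. Psma3 was at 123, 110.5 and 115 FPKM in the control libraries, at 86.1, 105 and 119.6 with busulfan, at 110.1, 95.0 and 105 with busulfan plus L.J. and at 98.9, 109 and 104 with L.J. alone. The third busulfan library lay within the controls. In the alpha ring 4 of 7 genes were below 0 and in the beta ring 5 of 7, with medians of -0.02 in each.

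Among the cap genes none passed with busulfan over all 3 libraries, although 16 of 17 pointed down. The smallest p was that of Psmc6, a subunit of the ATPase ring (Entrez 67089, chromosome 14). For Psmc6, FPKM values were 70.7, 75.2 and 68.1 in control, 52.8, 56.5 and 62.8 with busulfan, 68.7, 63.2 and 69.5 with busulfan plus L.J. and 57.0, 61.3 and 67.2 with L.J. alone. All 3 busulfan libraries were below the 3 controls, and so was every L.J. alone library. Its log2 change with busulfan was -0.31 (SE 0.09, limma adjusted p = 0.089). Control libraries had 86.0, 83.7 and 83.9 FPKM of Psmc1, busulfan libraries 66.7, 79.1 and 83.3, busulfan plus L.J. libraries 83.6, 77.7 and 75.5 and L.J. alone libraries 75.2, 79.6 and 79.3. For Psmc1, also of the ATPase ring, the busulfan libraries were all below the controls, the third by little, and so were the 6 libraries with L.J.

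Psmd14 encodes the deubiquitinase of the lid, which cuts the ubiquitin chain off a substrate as it enters. Psmd14 was at 42.6, 41.8 and 36.1 FPKM in the control libraries, at 27.6, 28.8 and 37.0 with busulfan, at 37.4, 35.4 and 37.6 with busulfan plus L.J. and at 35.6, 36.2 and 38.4 with L.J. alone. The first and second busulfan libraries were the lowest of the 12, and the third lay within the controls. Its log2 change was -0.36 (SE 0.11, limma adjusted p = 0.0929). Psmd12 is a scaffold subunit of the lid. For Psmd12, FPKM values were 53.2, 51.4 and 50.8 in control, 39.4, 41.0 and 50.2 with busulfan, 51.7, 45.5 and 47.8 with busulfan plus L.J. and 40.7, 50.8 and 46.2 with L.J. alone. Its busulfan libraries were all below the controls, the third by little, with a log2 change of -0.25 and a limma adjusted p of 0.193.

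The base also holds the scaffold Psmd2 and the ubiquitin receptor Psmd4. Control libraries had 59.8, 63.9 and 68.7 FPKM of Psmd2, busulfan libraries 49.6, 47.9 and 65.7, busulfan plus L.J. libraries 72.2, 60.2 and 69.0 and L.J. alone libraries 66.8, 65.7 and 63.6. Psmd4 was at 57.0, 53.2 and 56.4 FPKM in the control libraries, at 46.4, 49.6 and 64.2 with busulfan, at 56.5, 50.3 and 61.2 with busulfan plus L.J. and at 60.7, 54.2 and 54.2 with L.J. alone. In both, the first and second busulfan libraries were the lowest and the third was at or above the control mean. Their log2 changes were -0.25 (adjusted p = 0.242) and -0.07 (adjusted p = 0.764, limma). Psmd4 turned to 0.02 without the first busulfan library. Psmd3 was the only cap gene above 0, at 0.01, and lay below 0 under both other scalings and without the third busulfan library. The other 16 cap genes ran from -0.36 (Psmd14) to -0.05 (Psmc3) and did not pass.

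Chaperones were the class in which the busulfan values were all above 0, though none passed. Psmg4, a core assembly chaperone (Entrez 69666, chromosome 13, 34162964 to 34178172), has the shortest transcript of the 45 genes, at 555 bases. For Psmg4, FPKM values were 13.7, 10.7 and 15.0 in control, 18.9, 23.3 and 17.1 with busulfan, 13.2, 11.6 and 12.3 with busulfan plus L.J. and 13.3, 13.4 and 12.6 with L.J. alone. All 3 busulfan libraries were above every other library. Its log2 change was 0.55 (SE 0.13, limma adjusted p = 0.0567). Control libraries had 22.5, 19.1 and 20.7 FPKM of Psmg1, busulfan libraries 24.6, 29.9 and 20.2, busulfan plus L.J. libraries 20.1, 20.9 and 22.5 and L.J. alone libraries 21.7, 18.5 and 21.5. For Psmg1, whose product pairs with that of Psmg2, the first and second busulfan libraries were high and the third was within the controls. Psmd9 was at 8.15, 8.24 and 9.34 FPKM in the control libraries, at 14.5, 14.4 and 9.60 with busulfan, at 8.19, 9.28 and 9.14 with busulfan plus L.J. and at 7.36, 8.45 and 7.97 with L.J. alone. Psmd9, a chaperone of the ATPase ring, was high in the same 2 libraries, with a log2 change of 0.51 (SE 0.14, limma adjusted p = 0.076). Of its exonic bases, 25.5% are overlapped by a gene on the opposite strand, and the strand setting of the counting is not given in the sources used here.

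Counted by groups that do not overlap, 7 of the 45 genes had all busulfan libraries above all controls (Psma4, Psma7, Psmd9, Psme1, Psme2, Psmf1 and Psmg4) and 6 had all below (Psmc1, Psmc6, Psmd1, Psmd12, Psme2b and Psme4). These are 15.6% and 13.3% of the tested proteasome genes, beside 14.7% and 7.33% of all tested genes. The 4 cap genes among them were all lower, and the 2 core genes were both higher.

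The 3 busulfan libraries were not alike. In the first and second, 27 of the 45 genes lay below the control mean, compared with 25.0% of all tested genes. In the third library 19 of these 27 lay above the control mean. For the cap the median log2 difference from the control mean was -0.36, -0.23 and 0.03 in the 3 busulfan libraries in the order of their numbers, and for the core it was -0.15, 0.03 and 0.11. In each of the 3 libraries the cap median was below the core median. That order alone was not particular to busulfan. It also held in busulfan plus L.J. libraries 2 (-0.12 against -0.08) and 3 (-0.02 against 0.04). L.J. alone library 2 had it (-0.07 against -0.0005), as had control libraries 1 (0.008 against 0.011) and 2 (-0.011 against 0.009). The order was reversed in control library 3, busulfan plus L.J. library 1, and L.J. alone libraries 1 and 3. Over the 45 genes, the change in busulfan library 3 had a Spearman correlation of -0.49 with transcript length (n = 45 genes of 1 library, a description only). It was -0.38 and -0.32 in busulfan libraries 1 and 2. Whether length accounts for the difference of busulfan library 3 was not tested.

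**Figure D4:**
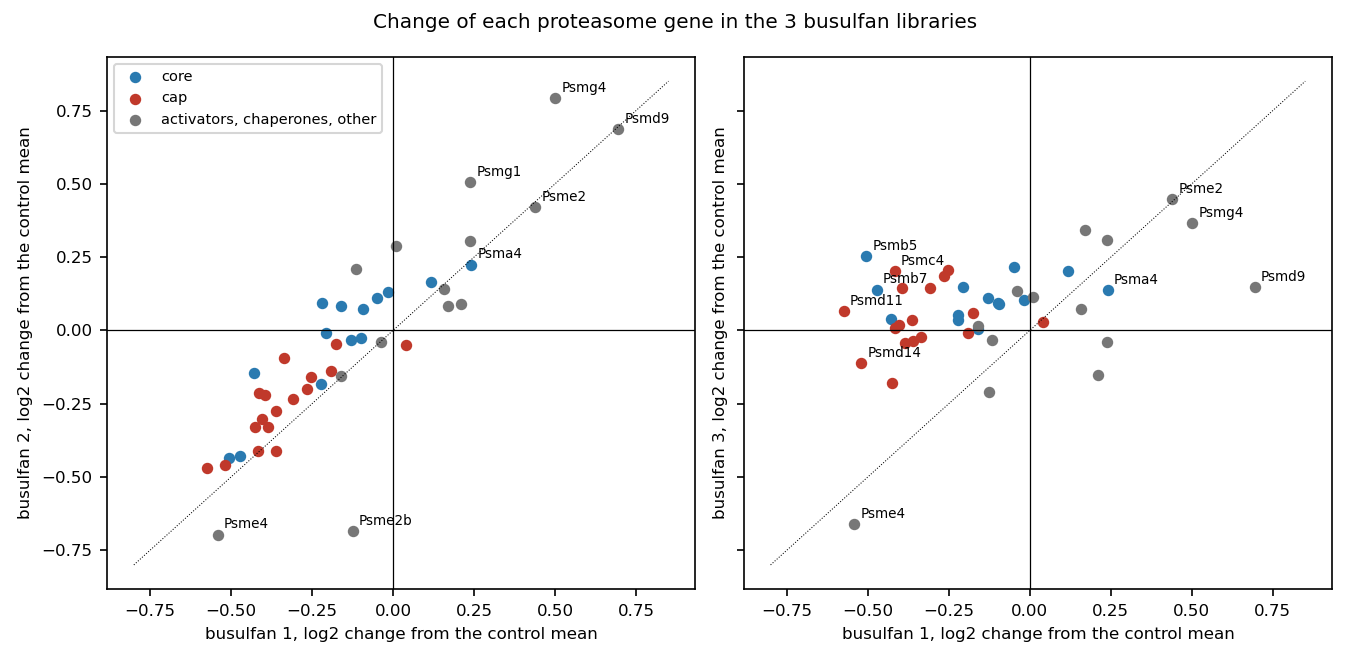
Each point is a tested proteasome gene, placed by its log2 difference from the control mean in the first busulfan library (horizontal axis) and in the second (left) or the third (right, vertical axes), with the dotted line marking equal values. On the left the cap genes other than Psmd3 lie below 0 on both axes and near the line, while on the right most are near or above 0 and Psme4 and Psme2 stay near the line.

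With the third busulfan library left out, more genes passed, most of them cap genes that were lower. Then 20 of the 45 genes were called, 4 higher (8.89%) and 16 lower (35.6%), where 24.4% of all tested genes were called higher and 8.12% lower. Of the 17 cap genes 12 fell, all 17 were below 0, and the median log2 change was -0.31, where the median of all tested genes was 0.15. The 12 were Psmc2, Psmc4, Psmc5 and Psmc6 of the ATPase ring, Psmd1 and Psmd2 of the base, and Psmd6, Psmd7, Psmd11, Psmd12, Psmd13 and Psmd14 of the lid. Psmd11 fell by 0.52 (SE 0.11, limma adjusted p = 0.0055) and Psmd14 by 0.49 (SE 0.08, limma adjusted p = 0.00206). In the core 3 of 14 fell, namely Psmb7 (-0.45, adjusted p = 0.00165), Psmb5 (-0.47, adjusted p = 0.00633) and Psma3. Those that rose were Psme2, Psmg1, Psmg4 and Psmd9, the last by 0.69 (SE 0.09, limma adjusted p = 0.000539). Scaling by median ratios moved the median of all genes by over 0.1 to -0.01, and then 2 were higher and 22 lower, where 11.2% of all tested genes were called higher and 15.0% lower. With quantile normalization the split was 3 and 18 (13.1% and 13.4% of all tested genes), and with the length and GC correction it was 4 and 13 (26.6% and 8.45%).

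A ratio within each library does not depend on its scaling, but it can depend on transcript length. Levels in the third busulfan library correlated with length at -0.52, and the part of length in these ratios was not tested. The summed level of the 17 cap genes came to 73.3%, 73.9% and 74.5% of that of the 14 core genes in the control libraries. It came to 65.1%, 63.9% and 69.9% with busulfan, to 77.4%, 73.8% and 74.4% with busulfan plus L.J. and to 71.7%, 70.6% and 73.5% with L.J. alone. All 3 busulfan libraries, the third included, were below the other 9. The lid alone gave 31.3%, 31.0% and 31.3% in control and 27.4%, 26.7% and 28.9% with busulfan. The third busulfan library lay above the 28.7% of the lowest L.J. alone library, so for the lid these 2 groups overlap.

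The same ratio set the activators apart. Psme1 and Psme2 together came to 5.97%, 5.10% and 5.17% of the core in control, to 7.47%, 7.08% and 6.40% with busulfan, and to between 5.17% and 5.63% in the 6 libraries with L.J. Psme4 came to 2.62%, 2.80% and 2.75% of the core in control and to 2.04%, 1.69% and 1.55% with busulfan. With busulfan plus L.J. it came to 2.69%, 2.91% and 2.81%. For both measures the busulfan libraries do not overlap with those of any other group. Psme3 showed no such split, at 4.26% to 4.73% in control and 4.15% to 4.46% with busulfan. No test is given on these sums, since their genes were chosen with earlier results known. The transcripts of Psme1 and Psme2 have 1112 and 962 bases and that of Psme4 has 6491. Whether length has a part in these shares, above all in the third busulfan library, was not tested.

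**Figure D5:**
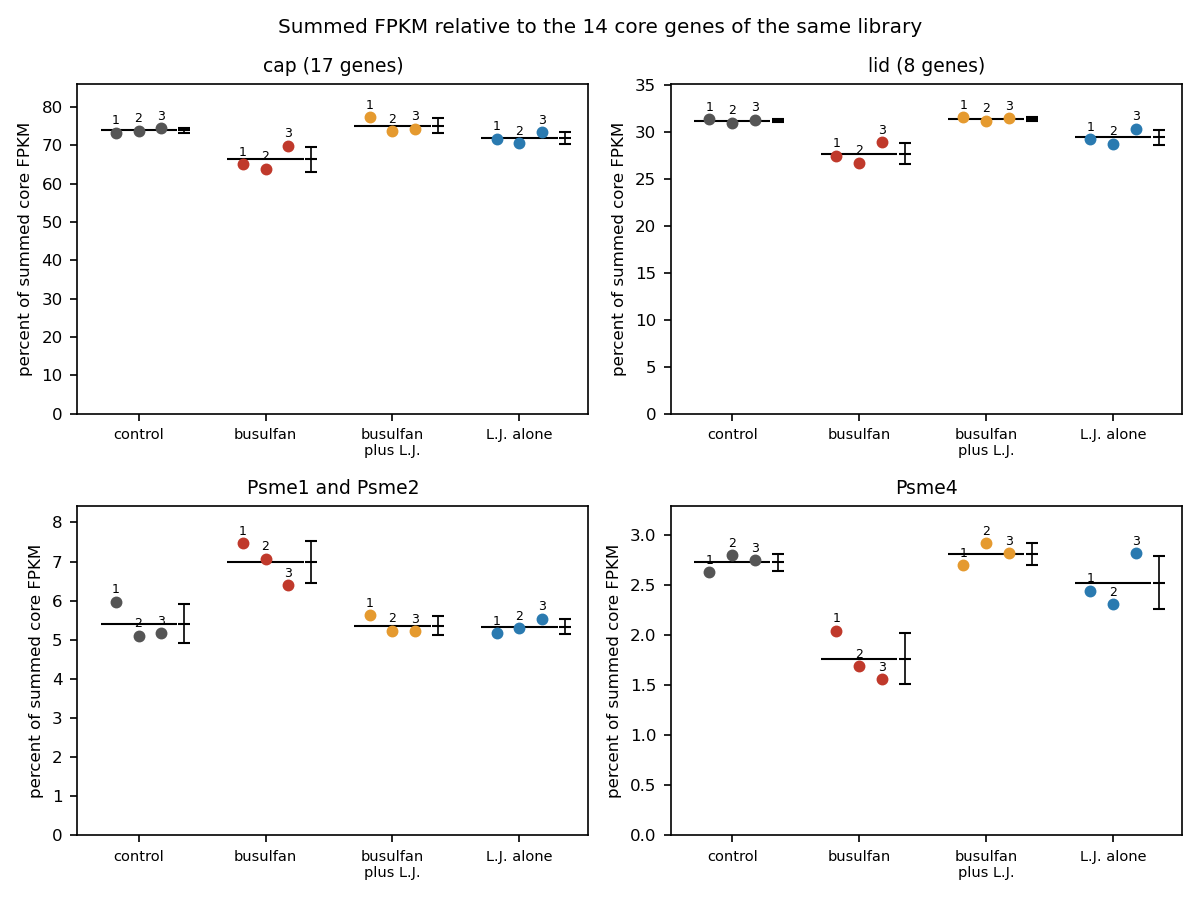
Summed FPKM of the cap genes, of the lid genes, of Psme1 with Psme2, and of Psme4, as a percent of the summed FPKM of the 14 core genes of the same library (vertical axes, from 0). Points are libraries numbered by replicate, lines are means and whiskers at the right are SDs. Busulfan libraries are lowest for the cap (63.9% to 69.9%) and Psme4, and highest for Psme1 with Psme2.

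Markers of other cell types moved with the busulfan group. The summed level of the 3 neutrophil markers was 9.19 to 99.5 FPKM with busulfan and 6.89 to 7.69 in control, with none at 0. Within that list S100a8 (28.5, 44.1 and 1.92 FPKM) and S100a9 carried the rise, while Ly6g stayed at 3.54 to 5.56 FPKM with busulfan and 3.87 to 4.91 in control. The 3 intercalated cell markers summed to 49.7 to 115 against 42.6 to 47.4, and the 2 distal convoluted tubule markers to 211 to 316 against 163 to 209. Of these genes only Slc26a4 had all busulfan libraries above all controls. In the third busulfan library Atp6v1g3 (26.0 FPKM) and Slc12a3 (112) lay within the controls and Slc4a1 (5.97) lay below them. Pvalb lay within the controls in the second (84.3). The 4 B and plasma cell markers were at 19.4 to 37.0 with busulfan against 6.97 to 18 FPKM in control, but L.J. alone reached 37.1. Most of that sum is Jchain, which overlapped between busulfan and control, as did Cd79a and Ms4a1. Mzb1, at a low level, did not overlap, at 3.01, 4.77 and 2.08 FPKM with busulfan and 0.46 to 0.97 in control. In the libraries with L.J. it reached at most 1.44 FPKM. The summed markers of T cells (2.0 to 4.63 against 1.95 to 3.03), macrophages and proximal tubule overlapped. Each proximal tubule marker overlapped too, but Slc22a6 was at 333, 259 and 610 FPKM with busulfan and 505 to 594 in control. Of the endothelium markers, Kdr was below all controls with busulfan (8.88, 8.57 and 9.26 against 11.7 to 14.7 FPKM). Pecam1, Cdh5 and Emcn overlapped. Within the macrophage list C1qa was above all controls with busulfan (14.9, 16.8 and 19.2 against 8.90 to 12.6 FPKM). Cd68, Adgre1 and Csf1r were not separated from control. With busulfan plus L.J. the neutrophil markers were at 3.60 to 5.83 and the intercalated cell markers at 39.8 to 46.3 FPKM, below busulfan in both. The 4 liver markers were at 7.78 to 12.7 FPKM with busulfan plus L.J. and 5.10 to 12.6 with L.J. alone, against 27.1 to 56.8 with busulfan and 25.1 to 64.9 in control. The 3 fat markers ranged up to 442 FPKM with busulfan plus L.J. and up to 145 with busulfan. The part of these markers in the results on Psme1, Psme2, Psme4, Psmg4 and the cap was not tested.

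Of 28 other genes of the pathway none passed with busulfan over all 3 libraries; 3 had an unadjusted p under 0.05 in the higher direction and 7 in the lower, where 15.5% and 7.15% of all tested genes had. The smallest p was that of Rps27a, a ubiquitin gene fused to a ribosomal protein. For Rps27a, FPKM values were 201, 210.2 and 189.7 in control, 312, 379 and 242 with busulfan, 203, 193 and 216 with busulfan plus L.J. and 186, 219.9 and 199 with L.J. alone. All busulfan libraries were above all others, and its log2 change was 0.61 (SE 0.14, limma adjusted p = 0.0543). Control libraries had 21.9, 21.5 and 20.6 FPKM of Usp14, busulfan libraries 15.5, 13.8 and 18.9, busulfan plus L.J. libraries 23.5, 18.9 and 18.5 and L.J. alone libraries 19.1, 19.4 and 21.7. Usp14, a deubiquitinase that binds the cap, had its 3 busulfan libraries below the controls and a log2 change of -0.40 (SE 0.12, limma adjusted p = 0.0954). The regulator Nfe2l2 was at 54.8, 63.6 and 34.6 FPKM with busulfan and 34.0, 36.6 and 39.6 in control, so the third library did not share its level. Its relative Nfe2l1, known for the response to proteasome inhibition, was at 39.4, 38.8 and 29.8 FPKM with busulfan and 31.6 to 33.9 in control.

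In kidneys given busulfan plus L.J., Psme4 was higher and Psme1, Psme2 and Psmg4 were lower than with busulfan alone. The comparisons of busulfan with control and with busulfan plus L.J. share the 3 busulfan libraries. Between busulfan plus L.J. and busulfan alone 4 of 45 genes (8.89%) passed, 1 higher and 3 lower, where 3.24% of all tested genes did (1.18% higher and 2.06% lower). The gene that rose was Psme4, and those that fell were Psmg4, Psme1 and Psme2. Psme4 had a log2 change of 0.61 (SE 0.08, limma adjusted p = 0.0174), with 36.7 to 39.9 FPKM against 23.6 to 26.4. Psmg4 had a change of -0.63 (SE 0.13, limma adjusted p = 0.0421), with 11.6 to 13.2 FPKM against 17.1 to 23.3. Psme1 had a change of -0.47 (SE 0.10, limma adjusted p = 0.0441), with 39.1 to 44.3 FPKM against 55.2 to 58.0. Psme2 had a change of -0.36 (SE 0.08, limma adjusted p = 0.0443), with 29.9 to 34.2 FPKM against 41.1 to 41.9. In all 4 the groups do not overlap. Of these only Psme4 stayed called without the second busulfan library (adjusted p = 0.0466) or without the first busulfan plus L.J. library (adjusted p = 0.0355). Without the first busulfan library, or the second or the third busulfan plus L.J. library, none was called.

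In the cap, 16 of 17 genes had a value above 0 with L.J. added (median log2 change 0.16), none of which passed. Of all tested genes 63.8% were below 0, with a median of -0.09. The next smallest p-values after the called genes were those of Psmd9 (-0.47, adjusted p = 0.0821), Psma4 (-0.33, adjusted p = 0.123) and Psmd2 (0.31, adjusted p = 0.151, limma). Of all 45 genes, 2 were higher without overlap (Psmc6 and Psme4; 4.44% beside 7.14% of all tested genes) and 6 lower (Psma4, Psma7, Psmd9, Psme1, Psme2 and Psmg4; 13.3% beside 12.1%). Without the third busulfan library 18 were called, 12 higher (26.7%) and 6 lower (13.3%), where 7.98% of all tested genes were higher and 23.6% lower. The 12 were 9 cap genes (Psmc2, Psmc4, Psmc6, Psmd1, Psmd2, Psmd6, Psmd11, Psmd13 and Psmd14), Psmb5, Psmb7 and Psme4. Psmb7 then rose by 0.44 (SE 0.07, limma adjusted p = 0.00203). The split was 21 and 2 with median ratios, where 14.6% of all tested genes were called higher and 10.9% lower. It was 16 and 4 with quantile normalization (13.5% and 12.4% of all tested genes) and 14 and 4 with the length and GC correction (8.43% and 26.2%).

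Among the other pathway genes 2 passed: Ube3c, a ubiquitin ligase that works on the proteasome, was higher with L.J. added (log2 change 0.37, SE 0.08, limma adjusted p = 0.0445), and Rps27a was lower (-0.58, SE 0.14, limma adjusted p = 0.0491). Ube3c was at 11.6, 11.8 and 12.2 FPKM in the control libraries, at 10.2, 9.70 and 9.37 with busulfan, at 12.6, 12.1 and 14 with busulfan plus L.J. and at 11.3, 11.3 and 12.6 with L.J. alone. The busulfan libraries were the 3 lowest for Ube3c. Both calls are lost when any library of either group other than the third busulfan library is left out.

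Between L.J. alone and control no proteasome gene passed, and no gene of the whole table did (0.0%); none of the 45 was higher and 1 was lower at an unadjusted p under 0.05, where 1.09% and 1.65% of all tested genes were. That gene was Psmc6, with a log2 change of -0.20 (SE 0.09, limma adjusted p = 0.999). For Psmd10, FPKM values were 12.9, 13.7 and 13.0 in control, 12.8, 12.8 and 14.6 with busulfan, 14.2, 13.1 and 14.4 with busulfan plus L.J. and 14.9, 14.8 and 15.1 with L.J. alone. Psmd10, a chaperone of the ATPase ring also known as gankyrin, came next at 0.17, with all L.J. alone libraries above all controls. Control libraries had 62.0, 62.9 and 64.5 FPKM of Psmd6, busulfan libraries 47.1, 54.2 and 63.5, busulfan plus L.J. libraries 71.2, 57.5 and 65.2 and L.J. alone libraries 48.4, 55.9 and 59. The lid gene Psmd6 followed at -0.21, also with no overlap. All 8 lid genes were below 0 (median -0.10), and the 14 core genes had a median of -0.03. Of all tested genes 60.1% were below 0, with a median of -0.03. Without overlap, 2 genes were higher (Psmb7 and Psmd10; 4.44% beside 4.74% of all tested genes) and 5 lower (Psma3, Psma5, Psmc1, Psmc6 and Psmd6; 11.1% beside 8.22%). The other pathway genes with the smallest p were Zfand5 (-0.22) and Akirin2 (0.21), neither called (adjusted p = 0.999 for both, limma).

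Between busulfan plus L.J. and control no proteasome gene passed, none had an unadjusted p under 0.05 (1.35% of all tested genes higher and 1.51% lower had), and 1 gene of the whole table (0.00814%) was called. The smallest p-values were those of Psme1 (-0.18, 95% interval -0.41 to 0.04), Psmf1 (0.13, interval -0.04 to 0.29) and the beta ring gene Psmb2 (-0.15, interval -0.35 to 0.06). Psmb2 was at 79.0, 78.5 and 77.5 FPKM in the control libraries, at 73.3, 82.4 and 83.4 with busulfan, at 70.1, 63.9 and 79.0 with busulfan plus L.J. and at 78.1, 78.1 and 69.4 with L.J. alone. Its busulfan plus L.J. libraries ranged from below to within the controls. For Psme4 the difference from control was -0.02 with an interval from -0.20 to 0.16, and for Psme2 it was 0.08 with an interval from -0.10 to 0.26. Without overlap, Psmf1 was higher (2.22% beside 5.63% of all tested genes) and Psma3, Psmc1 and Psmc5 were lower (6.67% beside 4.46%). Of the other pathway genes, Uba1 (0.12) and Ube3c (0.11) had the smallest p, neither called.

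Whether busulfan acted differently with L.J. than without it was asked with an interaction term, the busulfan effect under L.J. minus that without. No proteasome gene passed, where 0.0163% of all tested genes did; 4 had an unadjusted p under 0.05 in the higher and 3 in the lower direction (4.42% and 7.28% of all tested genes). Psme4 had the smallest p, with an interaction of 0.75 (SE 0.12, limma adjusted p = 0.148). Psmg4 (-0.63, adjusted p = 0.277), Psmc6 (0.43) and Psme2 (-0.38, both with adjusted p = 0.280, limma) followed. Of the cap genes 16 of 17 had a positive interaction (median 0.20), and the core median was 0.00. Of all tested genes 57.4% were below 0, with a median of -0.05. Without the third busulfan library 8 genes were called higher (17.8%) and 2 lower (4.44%), where 4.12% and 8.0% of all tested genes were. The 8 were Psme4, Psmb7 and the cap genes Psmc4, Psmc6, Psmd2, Psmd6, Psmd12 and Psmd14, and the 2 were Psmg4 and Psmd9.

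Some proteasome genes share sequence with copies elsewhere, so their levels carry a further doubt. Of the 50-base words of their longest coding transcript, 57.1% in Psmb5, 55.8% in Psmb3, 54.5% in Psma5, 26.4% in Psmd2 and 25.6% in Psma4 also occur in transcripts of other genes, most of them unnamed gene models. For Psme4 and Psmg4 the share was 0.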

How the data were processed

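The 12 libraries were made from 1 ug of total RNA of frozen kidney with Illumina protocols, per the labels' protocols, and were grouped by the description in their labels, with replicate numbers from their titles. The authors deposited 1 table of FPKM values for 21004 genes, rounded to 2 decimals, per the file headers. Per the submitters' processing notes they used Bowtie 0.12.2 and mm10; for the counting tool, annotation and strand setting, nothing is given in the sources used here. FPKM keeps no absolute depth, so no counting interval is given. For this report 26 symbols stored as dates were restored by identifier.

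Values were transformed to log2(FPKM + 1), which understates changes of low genes. The 12281 genes with at least 1 FPKM in at least 3 libraries entered a limma 3.58.1 model (trend option, R 4.3.3) with a mean for each group and every library in the fit. Tests were two-sided, and a Benjamini-Hochberg adjusted p under 0.05 over all tested genes was called. There were 5 comparisons: each of the 3 treated groups with control, the combination with busulfan, and the interaction. The procedure was tested on simulated data.

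Coordinates and upstream sequence came from RefSeq tables of GRCm38.p6, where 39 of the 47 genes had an upstream entry. Transcript lengths, GC content and shared 50-base words came from GENCODE M21. Members, classes and pathway lists were chosen with earlier results of these data known. Full values are given for called genes, otherwise for the 3 with the smallest p, and for a set of subunits listed by role (catalytic, alpha ring, base, lid, activator, inhibitor, assembly); of the other pathway genes those called or the 2 with the smallest p are named. Genes outside this rule (Psma4, Psma7, Psmd9, Psme2b, Psmd11, Nfe2l1, Nfe2l2 and Kap) were named after their values were seen. Alternatives were the pseudocount, the filter, 2 scalings, library weights, a replicate block, a fit of the compared groups alone, a length and GC correction, and leaving out each library; 3 that combine a scaling or correction with leaving out the third busulfan library were chosen after seeing the data.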

Additional observations from a re-analysis of the deposited data

How the results depend on the processing

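The comparisons of L.J. alone and of busulfan plus L.J. with control had 0 proteasome genes called in the main analysis and under every alternative run. For busulfan against control the 2 calls became 0 with the length and GC correction (0.0247% of all tested genes). They also became 0 with only the compared groups in the fit (0.0%). The number was 1 with median ratio scaling (2.22%, beside 3.09% of all tested genes) and 34 with library weights (75.6%, beside 59.5%). Leaving out 1 library each gave 0 to 20, the most without the third busulfan library (44.4%, beside 32.5%). Without the third busulfan library the number was 17 with the length and GC correction, 21 with quantile normalization and 24 with median ratio scaling (37.8%, 46.7% and 53.3%, beside 35.0%, 26.5% and 26.2% of all tested genes). The median log2 change was -0.18 with library weights and -0.16 with median ratio scaling, and without the third busulfan library -0.15, -0.18 and -0.29 in the same order, with leave-one-out values between -0.11 and -0.007.

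For busulfan plus L.J. against busulfan the 4 calls became 0 with the length and GC correction, 0 with only the compared groups, 2 without the filter, 2 with median ratio scaling and 30 with library weights (66.7%, beside 59.5% of all tested genes), and 0 to 18 with 1 library left out. Without the third busulfan library the same 3 settings gave 18, 20 and 23 (beside 34.6%, 25.9% and 25.5% of all tested genes). The median was 0.11 with library weights and 0.15 with median ratio scaling, then 0.11, 0.17 and 0.28 without the third busulfan library, and between -0.016 and 0.11 with 1 library left out. For the interaction the 0 calls became 1 without the filter (1 higher, 2.13% beside 0.0524% of all genes). They became 21 with library weights (46.7%, beside 33.8% of all tested genes). In the same 3 settings without the third busulfan library they became 11, 11 and 14 (24.4%, 24.4% and 31.1%, beside 13.2%, 11.6% and 10.4%). With 1 library left out they became 0 to 10, the most without the third busulfan library (22.2%, beside 12.1%). Its median was 0.14 with the length and GC correction, 0.14 with library weights, 0.13 with median ratio scaling, and 0.17, 0.16 and 0.25 in those 3 added settings, with leave-one-out values between 0.006 and 0.11. The cause of these shifts was not tested.

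With the replicate number as a block, 1 gene was called for busulfan against control, 0 for busulfan plus L.J. against busulfan and 0 for the other comparisons. The labels do not say what the numbers stand for. Deviations from the group means of libraries with the same number correlated at -0.24 to 0.08 across genes. By this measure 0 libraries correlated best with a library of their own number. With 3 libraries a group this cannot show whether the numbers stand for a pairing.

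Over all 45 genes the sign turned under at least 1 alternative for 18 in busulfan against control, 21 in busulfan plus L.J. against busulfan, 16 in L.J. alone against control, 28 in busulfan plus L.J. against control and 19 in the interaction, none of them called in the main analysis or where it turned. Of the genes followed by name for busulfan against control, Psmb6 turned to -0.017 with median ratio scaling, -0.045 with library weights and -0.094 with the length and GC correction. Psmd3 turned to -0.044 with quantile normalization, -0.10 with median ratio scaling and -0.11 with the length and GC correction. With the third busulfan library left out and with quantile normalization, median ratio scaling and the correction in this order, Psmb6 was at -0.029, -0.15 and -0.092 and Psmd3 at -0.053, -0.19 and -0.081, while median ratio scaling then gave -0.042 for Psma7 and -0.022 for Psmf1. With 1 library left out, Psmd4 ranged from -0.20 to 0.024, Psmd3 from -0.023 to 0.036 and Psmc3 from -0.11 to 0.0072. For busulfan plus L.J. against busulfan Psmd4 ranged from -0.016 to 0.21 and Psmc1 from -0.042 to 0.12, and against control Psme4 from -0.050 to 0.0078. Psme4 was called in 10 of 17 alternatives for busulfan against control (log2 change -0.80 to -0.50, limma adjusted p 5.57e-06 to 0.22). It was called in 11 of 17 for busulfan plus L.J. against busulfan (0.48 to 0.77, limma adjusted p 1.66e-05 to 0.273). Psme2 was called in 7 and 6 of 17. These alternatives share libraries and are not independent, and 3 of them were chosen after seeing the data. Of the 6 that leave out 1 library, Psme4 was called in 1 and 3 and Psme2 in 1 and 1, in the same order. With 3 libraries a group and no known depth, changes of low genes are the least certain.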
